A study of Mus musculus with 14 samples.

Results

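The knockdown of Etv4 and Etv5 in the presence of TGF-β was described from 3 of the 14 libraries of the series. These came from EpRas cells that had received either the control siRNA siNC, siRNA pair 1 (Etv4_1 and Etv5_1) or siRNA pair 2 (Etv4_2 and Etv5_2), followed by 1 ng/ml TGF-β3 for 48 h. EpRas cells are the H-Ras-transformed derivative of the mouse mammary epithelial line EpH4, so all libraries compared here carry the H-Ras transformation. The same 3 transfections without TGF-β (3 libraries) and the untransfected EpRas libraries (2 without and 2 with TGF-β) served for comparison. Each siRNA condition is 1 library. The pairs differ in the siRNAs themselves and are not repeats of 1 treatment, so the spread between them includes any effect of a given siRNA, and how siNC varies is not measured. Expression levels are given as FPKM, that is fragments scaled to the length of the transcript and to the size of the library, with the interval that Cuffdiff gives for the FPKM of 1 library.

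Etv4 and Etv5 belong to the PEA3 group of ETS family transcription factors, which bind DNA around a GGAA core and act downstream of receptor tyrosine kinases, Ras and ERK. They are known for roles in branching of epithelial organs and in invasion of carcinoma cells, where matrix metalloproteinase genes are among their described targets. TGF-β induces epithelial-mesenchymal transition (EMT) in Ras-transformed mammary epithelial cells. The comparison addresses which genes depend on Etv4 and Etv5 in cells that have received TGF-β.

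The targeted genes were lower with both pairs. Etv4 (chromosome 11, 101769742 to 101785371, minus strand, mm10) was at 64.3 FPKM in siNC cells, against 12.6 FPKM for pair 1 and 18.9 FPKM for pair 2, that is 19.6% and 29.4% of siNC, and the intervals of both pairs lay below that of siNC. Etv5 (chromosome 16, 22381309 to 22439719, minus strand) was at 5.34, 1.24 and 1.20 FPKM in the same order. For Etv5 the steps between low FPKM values gave 250, 46 and 40 reads, and with the depth taken into account pair 1 left 23.2% of siNC (95% exact interval 16.6 to 31.9%) and pair 2 left 22.5% (15.7 to 31.5%). These intervals cover counting error only. The Cuffdiff intervals of Etv5 overlapped. In limma, described below, the log2 difference was -1.99 for Etv4 (SE 0.56, adjusted p = 0.311) and -1.51 for Etv5 (SE 0.21, adjusted p = 0.184), and with the siRNA pair as a block both had an adjusted p of 0.0447. Etv5 reached 5 FPKM, the minimum for testing, with siNC only, so its p lends no support and its values are a description. Of the remaining ETS genes, 0 of the 13 that were tested differed at least 2-fold with both pairs, where 2.49% of all genes tested were lower and 1.33% higher, so that 0 of 13 is near the background. The third PEA3 member, Etv1, was at 1.04 FPKM with siNC and at 0.497 and 1.30 FPKM with the pairs, below the minimum for testing.

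The labels print the sequence of 1 of the siRNAs, the custom-made Etv5 siRNA of pair 2. It is shown because it marks where in Etv5 the knockdown of that pair was aimed, with bases 2 to 8 of the printed strand in capitals.
siEtv5_2: uUAAAUUCcaugccucggccagucc
The 25 bases are antisense to Etv5 and match positions 1447 to 1471 of transcript Etv5-201, in the coding part of exon 11, at chr16:22392674-22392698 of mm10. In the GENCODE transcripts a complete match was found in 2 transcripts of Etv5 and in 0 transcripts of other genes.

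The 3 libraries with TGF-β had a relative depth of 1.74 (siNC), 1.38 (pair 1) and 1.24 (pair 2), taking siNC without TGF-β as 1, and a level of 5 FPKM corresponded to a median of 55.2 to 77.7 reads. Epithelial markers were high in all 6 siRNA libraries (Krt8 1083 to 2197 FPKM, Epcam 111 to 222 FPKM), and Ptprc, Emr1, Adipoq and Lum, which define leukocytes, macrophages, fat cells and fibroblasts, were at 0 or at most 0.0267 FPKM. Cd68 and Pdgfra, also written as markers of other cells, were at 6.52 and 6.79 FPKM with siNC and at 2.18 to 3.86 FPKM with the pairs. The summed level of the 11 markers of other cell types was 17.2 FPKM with siNC and 5.25 and 7.47 FPKM with the pairs, and 6 of the 11 were below siNC with both pairs. Their part in the results was not tested. Cells with siNC stood apart in their response, which compares the siNC libraries with and without TGF-β. Of 119 tested genes that TGF-β lowered in untransfected EpRas cells, 42 (35.3%) were at least 2-fold lower with than without TGF-β in siNC cells, against 80 (67.2%) with pair 1 and 86 (72.3%) with pair 2. Of 122 genes that TGF-β raised in untransfected cells, 82 (67.2%), 100 (82.0%) and 108 (88.5%) were at least 2-fold higher. With 1 siNC library for each treatment, a property of either library and an effect of the knockdown cannot be told apart.

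A gene was counted as lower or higher where log2(FPKM + 1) differed from siNC by at least 1 (2-fold) in the same direction with both pairs. Among the 9094 genes that reached 5 FPKM in any of the 6 siRNA libraries, 226 (2.49%) were lower and 121 (1.33%) were higher with both pairs. In opposite directions with the pairs, 7 genes differed at least 2-fold, of which 3 are genes of small RNAs (microRNAs, small nucleolar RNAs and the like). Of these small RNA genes 96 were tested, and they are so short that 1 read is worth many FPKM. They made up 20 of the 226 lower genes, and 15 of these 20 were listed at 0 with both pairs. Without them 206 of 8998 genes (2.29%) were lower and 118 (1.31%) higher. Among the 206 lower genes, 47 were at 50 FPKM or more with siNC, and among the 118 higher genes, 43 averaged 50 FPKM or more with the knockdown. Of the 226 lower genes 66 reached 5 FPKM with siNC only, and of the 121 higher genes 34 with the knockdown only, so that they were tested only through the group where they are high, and their counts and p-values lend no support. Such genes are named below. Whatever the size of the difference, 3179 of the 9094 genes (35%) lay below siNC with both pairs and 3672 (40.4%) above. Just inside the 2-fold limit lay Tinagl1 (-1 for the smaller difference) and Cdk2ap2 (1.001), and just outside it Plekha7 (-0.998) and Ppp1r14b (0.996). The Cuffdiff intervals of both pairs lay clear of that of siNC for 41 lower (0.451%) and 22 higher genes (0.242%). In bulk RNA, fewer cells of a type and less RNA per cell cannot be told apart.

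**Figure D1:**
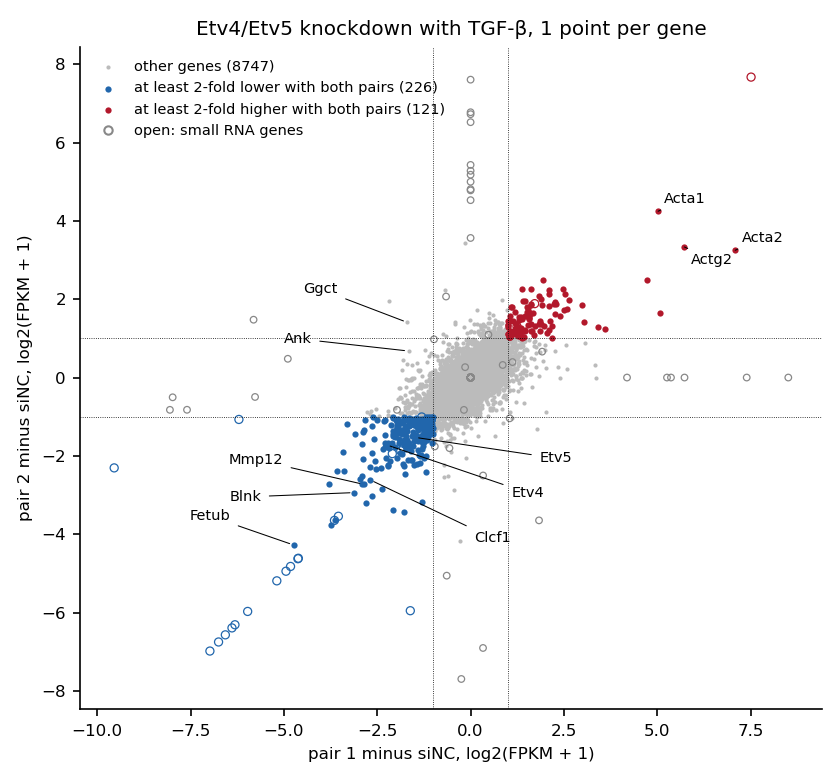
Difference from siNC with siRNA pair 1 (horizontal axis) and with pair 2 (vertical axis), both with TGF-β and on the log2(FPKM + 1) scale, 1 point for each of the 9094 genes, with dotted lines at 2-fold. The 226 blue genes were lower and the 121 red genes higher with both pairs, open circles are small RNA genes, and the line of open blue circles at the lower left holds genes listed at 0 with both pairs.

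In limma over the 6 siRNA libraries, with Benjamini-Hochberg adjustment over all 9094 genes, 7 genes fell (0.077%) and 0 genes rose (0%) at an adjusted p under 0.05, while 597 lower and 586 higher genes had an unadjusted p under 0.05. The 7 genes were Pdyn, Gm7367 and 5 small RNA genes (Mir3100, Mir328, Snora17, Snord2 and Snord7). Pdyn, the gene of prodynorphin, was at 11.3 FPKM with siNC and was listed at 0 with both pairs. Gm7367 was at 12.6 FPKM in siNC cells and at 0.0125 (pair 1) and 0.00119 FPKM (pair 2). All 7 had equal or nearly equal values with the pairs, with and without TGF-β, so the spread that the test measures was close to 0 for them, and a value listed at 0 can be a failed estimate. With the siRNA pair as a block, which removes the difference between the pairs that is common to both treatments, 99 genes were lower (1.09%) and 50 higher (0.55%), of which 93 and 49 were also at least 2-fold lower or higher with both pairs. Below, an adjusted p is that of limma without the block unless the block is named, and SE is its standard error.

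The largest decreases, ranked by the smaller of the changes of the pairs among genes with separate intervals, were those of Fetub, Pdyn, Blnk, Fbxo2, Mmp12, Ivl, Calr3, Clcf1, Rgs16, Sord, Slpi, Xdh, Nptx1, Cyp1b1 and Adamtsl4. Of these 15 genes Fetub, Pdyn, Mmp12, Ivl, Calr3 and Rgs16 reached 5 FPKM with siNC only, and their values are a description. Fetub (chromosome 16, 22918334 to 22939778, plus strand), which encodes the secreted protease inhibitor fetuin-B, was at 25.8 FPKM with siNC, was listed at 0 with pair 1 and was at 0.382 FPKM with pair 2. Its log2 difference was -4.51 (SE 0.32, adjusted p = 0.0579, with the block 0.0173). Blnk (chromosome 19, 40928927 to 40994535, minus strand), an adaptor known from B cell receptor signalling, was at 25.6, 2.06 and 2.47 FPKM (siNC, pair 1, pair 2). In both genes the values of the pairs lay close to each other and far below siNC.

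Clcf1 (chromosome 19, 4214238 to 4223490, plus strand) had the highest level among these 15 genes. It encodes a cytokine of the interleukin-6 family and was at 231.7 FPKM in siNC cells, against 35.0 FPKM for pair 1 and 37.1 FPKM for pair 2 (log2 difference -2.65, SE 0.26, adjusted p = 0.14, with the block 0.0255). Rgs16, a regulator of G protein signalling, was at 33.6, 3.43 and 4.69 FPKM. Its read numbers were 926, 75 and 92, so that 10.2% (95% exact interval 7.97 to 12.9%) and 14% (11.2 to 17.3%) of siNC were left. Slpi, a secreted inhibitor of leukocyte proteases, was at 35.4, 2.46 and 5.97 FPKM, and Xdh, which makes uric acid, at 16.4, 0.445 and 2.33 FPKM.

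A further 6 of these genes had 0.0741 to 3.97 FPKM with the pairs. Fbxo2, a ubiquitin ligase subunit that recognises glycoproteins, went from 33.3 FPKM with siNC to 3.97 and 2.74 FPKM. Sord, the sorbitol dehydrogenase, was at 18.2, 1.57 and 2.38 FPKM. Cyp1b1, a cytochrome P450 that oxidises steroids and xenobiotics, was at 17.1, 2.10 and 2.56 FPKM. The secreted proteins Nptx1 (neuronal pentraxin) and Adamtsl4 were at 11.8, 1.48 and 0.771 FPKM and at 18.0, 2.62 and 2.86 FPKM. Calr3, a calreticulin of the testis, was at 7.76, 0.417 and 0.0741 FPKM.

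**Figure D2:**
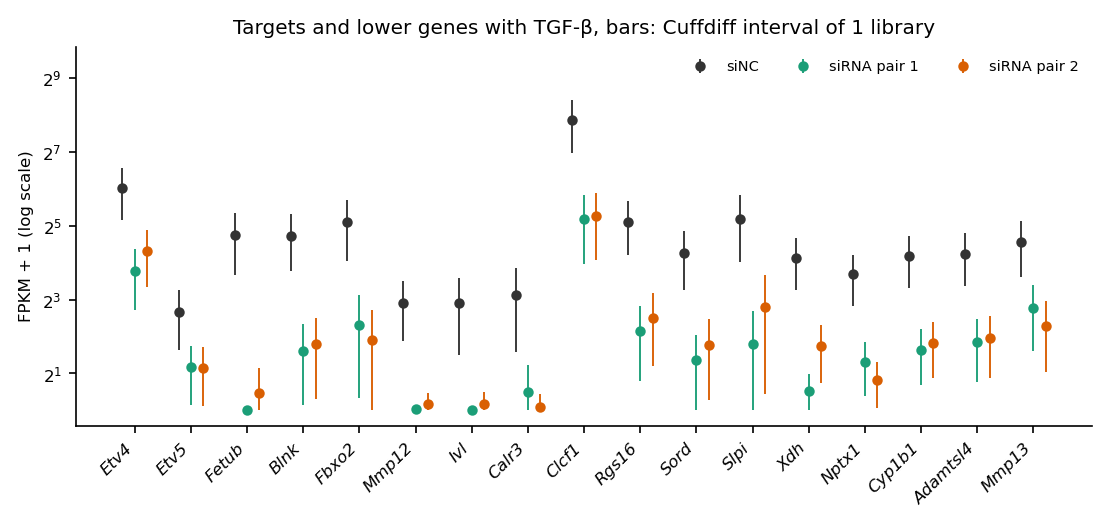
FPKM + 1 (log scale) of the targeted genes, of 14 of the 15 largest decreases and of Mmp13 in the 3 libraries with TGF-β, where bars are the Cuffdiff interval of 1 library. Etv5 is the gene shown whose intervals overlap, Fetub is listed at 0 with pair 1, and Clcf1 goes from 231.7 FPKM with siNC to 35.0 and 37.1 FPKM.

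Of 11 tested metalloproteinase and inhibitor genes, 4 were lower with both pairs (36.4%, beside 2.49% of all genes tested) and 0 higher (1.33% of all). Of the 4, Mmp12 reached 5 FPKM with siNC only. Mmp13 (chromosome 9, 7272514 to 7283331, plus strand), which encodes collagenase-3, was at 22.5 FPKM in siNC cells and at 5.80 (pair 1) and 3.92 FPKM (pair 2), with 719, 147 and 89 reads. This left 25.8% (95% exact interval 21.5 to 30.9%) and 17.4% (13.8 to 21.7%) of siNC, with intervals from Cuffdiff that did not overlap (log2 difference -2.02, SE 0.27, adjusted p = 0.184, with the block 0.0368). Mmp12 (chromosome 9, 7344381 to 7369499, plus strand), the macrophage elastase, was at 6.47, 0.0287 and 0.128 FPKM, and its reads were 285, 1 and 4. The stromelysin genes Mmp3 (6.77, 0.977 and 2.18 FPKM) and Mmp10 (80.6, 37.8 and 29.2 FPKM) were lower as well, with overlapping intervals. These 4 genes all belong to the cluster of metalloproteinase genes on chromosome 9.

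The other metalloproteinases and inhibitors of the list were not called. Mmp9, the gelatinase B, was at 319 FPKM with siNC and at 249.9 and 309 FPKM with the pairs. Mmp14, the membrane-bound collagenase, was at 97.9, 201 and 153 FPKM. The inhibitor gene Timp1 was at 530 FPKM with siNC and at 307 and 389 FPKM with the pairs, below siNC by less than 2-fold. Serpinb2, the plasminogen activator inhibitor type 2, was lower (6.48, 0.606 and 0.553 FPKM, adjusted p = 0.14, with the block 0.0283). It was the only one of 7 tested genes of the plasminogen system that was (14.3%, beside 2.49% of all). It reached 5 FPKM with siNC only. Plau, the urokinase, was at 231.2, 155 and 189 FPKM.

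The promoter windows of Mmp13, Mmp12 and Fetub, from 250 bases before to 50 after a transcription start, are shown as examples of lower genes. Letters in capitals are AGGAAG, a form of the ETS core, and TGANTCA, the AP-1 site, each searched on both strands (CTTCCT is AGGAAG on the other strand). Mmp12 and Fetub have 2 windows each, in the order of their coordinates. Sequences are from RefSeq on GRCm38.p6.
Mmp13: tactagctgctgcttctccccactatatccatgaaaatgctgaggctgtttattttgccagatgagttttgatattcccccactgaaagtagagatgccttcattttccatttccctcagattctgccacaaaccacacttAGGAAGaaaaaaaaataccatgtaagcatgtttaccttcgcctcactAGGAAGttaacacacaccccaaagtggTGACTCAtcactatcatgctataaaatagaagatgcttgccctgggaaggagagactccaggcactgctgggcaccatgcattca
Mmp12: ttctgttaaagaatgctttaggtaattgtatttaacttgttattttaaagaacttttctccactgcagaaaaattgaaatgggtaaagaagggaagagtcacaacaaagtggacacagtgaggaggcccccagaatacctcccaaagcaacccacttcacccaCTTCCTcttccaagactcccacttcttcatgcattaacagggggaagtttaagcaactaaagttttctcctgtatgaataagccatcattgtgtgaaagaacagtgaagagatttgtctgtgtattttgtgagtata
Mmp12: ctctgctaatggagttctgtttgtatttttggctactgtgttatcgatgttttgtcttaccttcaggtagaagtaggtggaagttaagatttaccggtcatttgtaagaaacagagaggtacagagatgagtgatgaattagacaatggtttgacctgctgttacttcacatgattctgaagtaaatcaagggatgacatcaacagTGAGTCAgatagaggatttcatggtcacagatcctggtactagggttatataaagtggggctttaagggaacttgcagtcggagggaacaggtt
Fetub: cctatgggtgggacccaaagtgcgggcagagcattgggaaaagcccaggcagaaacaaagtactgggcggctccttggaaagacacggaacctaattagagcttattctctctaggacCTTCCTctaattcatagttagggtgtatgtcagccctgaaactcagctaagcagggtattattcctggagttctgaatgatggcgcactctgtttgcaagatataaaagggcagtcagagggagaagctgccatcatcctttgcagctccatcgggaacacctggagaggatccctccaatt
Fetub: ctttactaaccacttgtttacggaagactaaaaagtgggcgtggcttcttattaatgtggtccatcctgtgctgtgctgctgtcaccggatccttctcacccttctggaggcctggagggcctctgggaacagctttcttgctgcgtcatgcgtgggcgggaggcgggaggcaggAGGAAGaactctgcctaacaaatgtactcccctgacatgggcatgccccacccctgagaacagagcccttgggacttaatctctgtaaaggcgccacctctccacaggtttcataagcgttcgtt
They lie at chr9:7272264-7272563 (Mmp13), chr9:7344147-7344446 and chr9:7347124-7347423 (Mmp12), and chr16:22918132-22918431 and chr16:22919972-22920271 (Fetub), all on the plus strand. In Mmp13 AGGAAG starts 109 and 62 bases before the transcription start and TGACTCA 35 bases before it. The letters are common. Of 32851 RefSeq windows of this length, 35.4% hold AGGAAG, 7.81% TGANTCA and 8.86% CCGGAAG. These windows include those of genes that were not tested, so the shares are not those of the tested genes. A comparison of lower genes with all genes tested is not given here, since windows were missing for part of both. A window was found for 73.5% of the lower genes and for 79.9% of all genes tested.

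Among 23 tested ERK feedback and ERK-induced genes, 3 were lower (13%, beside 2.49% of all genes tested) and 0 higher. Fosb reached 5 FPKM with siNC only. It was at 9.50, 2.43 and 2.13 FPKM (siNC, pair 1, pair 2, adjusted p = 0.173, with the block 0.0433). Fos, which like Fosb is one of several AP-1 subunit genes, was at 16.8, 3.61 and 7.54 FPKM. Ier3, an immediate early gene, was at 556, 231 and 234 FPKM. The feedback phosphatase gene Dusp6 was at 28.5, 14.6 and 16.4 FPKM, and the feedback inhibitor gene Spry2 at 11.8, 5.69 and 8.72 FPKM. Both were below siNC with each pair by less than 2-fold on the log2(FPKM + 1) scale.

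Of the 5 tested genes in the list for the cornified envelope, the cross-linked protein layer of keratinocytes, all were below siNC with both pairs. By at least 2-fold, 3 of the 5 were lower (60%). Among all genes tested these shares were 35% and 2.49%. Of the 3, Ivl and Sprr1a reached 5 FPKM with siNC only. Ivl (involucrin) was at 6.46 FPKM with siNC, was listed at 0 with pair 1 and was at 0.128 FPKM with pair 2. Lce1f, a late cornified envelope gene, was at 150.8, 29.9 and 43.3 FPKM (adjusted p = 0.227, with the block 0.0335). Lce1g (634, 255.5 and 201.3 FPKM) and Lce1h (133.4, 46.2 and 27.8 FPKM) are late cornified envelope genes outside the list. Both were lower too and were named after their values were seen. Sprr1a was at 1.05 FPKM with siNC (Cuffdiff interval 0 to 3.32 FPKM) and was listed at 0 with both pairs. It passed the filter through siNC cells without TGF-β, which had 18.5 FPKM, and lacked a clear level in this comparison. In the list of 11 S100 genes, which encode small calcium-binding proteins, S100a8 (12.98, 0 and 1.14 FPKM), S100a7a (15.5, 3.62 and 3.23 FPKM) and S100a3 (12.7, 5.35 and 5.54 FPKM) were lower (27.3%, beside 2.49% of all genes tested), and 0 were higher. S100a8 rested on 32, 0 and 2 reads. S100a7a and S100a8 are also known from inflamed or differentiating epidermis.

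Smaller groups of lower genes lay in 3 further lists, where 2.49% of all genes tested were lower and 1.33% higher. Of 20 antioxidant genes, 3 were lower (15%) and 0 higher. Gsta4, a glutathione transferase gene, was at 108, 9.29 and 28.5 FPKM (adjusted p = 0.345, with the block 0.018). The other members were Gstm2, also a glutathione transferase gene (10.2, 1.85 and 3.35 FPKM), and Osgin1 (105, 24.3 and 51.0 FPKM). Of 18 p53 targets, Trp53inp1 (6.19, 2.27 and 1.51 FPKM), Mdm2, the ubiquitin ligase of p53 (95.9, 44.0 and 41.3 FPKM), and Sesn2 (37.6, 17.8 and 18.2 FPKM) were lower (16.7%) and 0 were higher. Of 10 interferon-stimulated genes, Isg15 (20.5, 7.22 and 8.05 FPKM) and Oasl1 (5.63, 1.27 and 1.53 FPKM) were lower (20%), 7 were below siNC with both pairs and 0 above, beside 35% and 40.4% of all genes tested. Gstm2, Trp53inp1 and Oasl1 reached 5 FPKM with siNC only.

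On the higher side, actin genes of muscle led. Of the 15 largest increases, chosen like the decreases, Acta1, Actg2, Acta2, Ces1g, Col5a3, Klhl30, Ret, Pdgfrb and Adamts4 reached 5 FPKM with the knockdown only, and their values are a description. Acta1, the skeletal muscle actin, was at 1.13 FPKM in siNC cells, against 68.3 FPKM for pair 1 and 39.4 FPKM for pair 2 (log2 difference 4.64, SE 1.05, adjusted p = 0.263, with the block 0.0368). Actg2, the enteric smooth muscle actin, was at 0.0695, 55.8 and 9.78 FPKM. Acta2 (chromosome 19, 34241090 to 34255590, minus strand), the α-smooth muscle actin known as a myofibroblast marker, was at 0.49 FPKM in siNC cells and at 201.9 (pair 1) and 13.2 FPKM (pair 2). It rested on 10, 3265 and 191 reads, and its SE of 2.34 for a log2 difference of 5.17 reflects how far the pairs lay from each other (adjusted p = 0.443, with the block 0.00708).

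Of 15 tested contractile genes, 5 were higher (33.3%) and 0 lower, and 12 were above siNC with both pairs, beside 1.33%, 2.49% and 40.4% of all genes tested. Acta2, Actg2, Tagln and Fhl1, 4 of the 5, reached 5 FPKM with the knockdown only, so that they were tested through the libraries where they are high and the count says nothing more for them. The list's median log2 difference was 1.10, against 0.03 over all genes tested. It includes these 4 genes, so it is a description and lends no support. Acta1 was not on this list. The members beside Acta2 and Actg2 were Tagln, the actin-binding transgelin (0.838, 47.9 and 9.28 FPKM), Fhl1, a LIM domain protein of muscle (0.182, 39.1 and 2.69 FPKM), and Tpm1, the α-tropomyosin (392, 1722 and 1071 FPKM), which was named after its values were seen. In each of the 5 genes the value with pair 1 was above that with pair 2. Without TGF-β, Acta2 was at 0.512 FPKM in siNC cells, against 23.4 FPKM for pair 1 and 0.201 FPKM for pair 2, Actg2 at 0, 13.2 and 0.19 FPKM, and Tagln at 0.681, 3.94 and 0.459 FPKM. So without TGF-β these 3 genes were above siNC with pair 1, and with pair 2 they were at or below 0.459 FPKM.

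**Figure D3:**
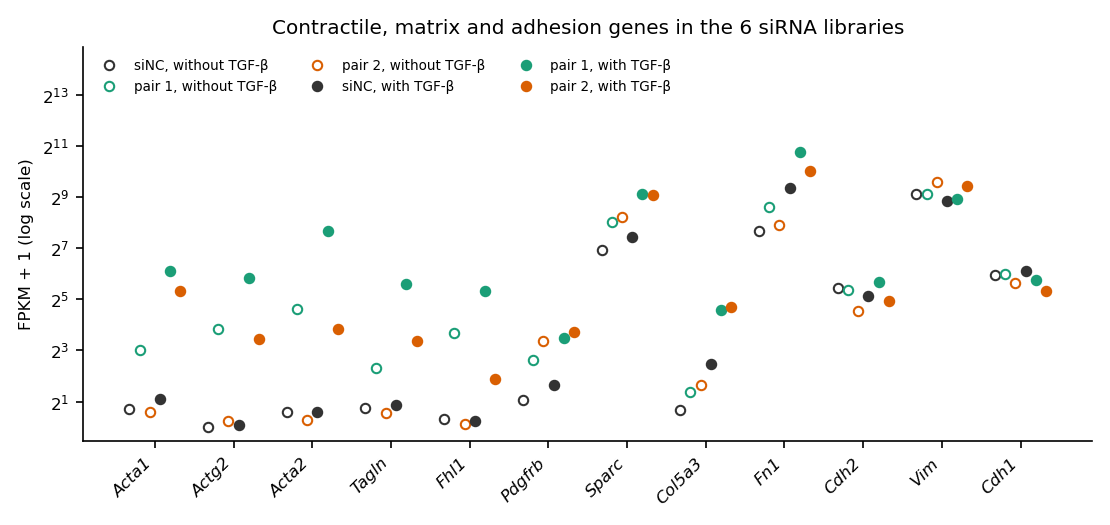
FPKM + 1 (log scale) of contractile, matrix and adhesion genes in the 6 siRNA libraries, open circles without and filled circles with TGF-β, 1 circle for each library. Acta2 reaches 201.9 FPKM with pair 1 and 13.2 FPKM with pair 2, while Sparc lies at 556 and 546 FPKM and Cdh1 at 68.3 FPKM with siNC and 53.4 and 39.5 FPKM with the pairs.

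Genes of the matrix and its receptors were split. Of 22 matrix glycoprotein genes, 3 were higher (13.6%, beside 1.33% of all genes tested) and 2 lower (9.09%, beside 2.49%), and of these Wisp2 reached 5 FPKM with the knockdown only. Sparc, a collagen-binding matricellular protein, was at 174, 556 and 546 FPKM (adjusted p = 0.173, with the block 0.043). The CCN family genes Wisp1 (7.09, 30.7 and 19.1 FPKM) and Wisp2 (0.295, 4.59 and 3.60 FPKM) were higher too. Lama3, the laminin α3 chain of epithelial basement membranes, was lower with 114 FPKM with siNC and 18.3 and 38.1 FPKM with the pairs. Among 9 tested integrin genes, a separate list, Itga2, the α2 integrin that binds collagen, was the only one lower (30.1, 7.68 and 10.5 FPKM), which is 11.1% beside 2.49% of all genes tested.

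Col5a3, a chain of collagen V, was higher with 4.47, 22.7 and 24.8 FPKM (adjusted p = 0.147, with the block 0.0283). It was the only one of 13 collagen genes that passed 2-fold with both pairs (7.69%, beside 1.33% of all genes tested). Col5a3 reached 5 FPKM with the knockdown only, so this count and its p lend no support. Pdgfrb, the PDGF receptor β of mesenchymal cells, was at 2.09, 10.1 and 12.02 FPKM. The secreted proteases Adamts4, an aggrecanase (3.97, 28.6 and 15.6 FPKM), and Prss23 (18.6, 91.5 and 70.6 FPKM) were higher, and the adhesion molecule Mcam was at 6.96, 61.7 and 27.6 FPKM. Ret, the receptor of GDNF family ligands, was at 4.04, 18.4 and 27.2 FPKM. In untransfected cells with TGF-β, Ret was at 17.9 and 24.4 FPKM, near the pairs. Mcam was there at 16.7 and 16.4 FPKM, between siNC and the pairs. The further genes of the 15 largest increases were Ces1g (0.519, 7.43 and 6.26 FPKM), Klhl30 (2.77, 22.5 and 13.8 FPKM), Glipr2 (5.96, 32.8 and 24.4 FPKM) and H2afx, the histone H2A.X (29.3, 174 and 133 FPKM).

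Of 13 tested mesenchymal marker genes, 4 were higher (30.8%, beside 1.33% of all genes tested) and 0 lower, 9 were above siNC with both pairs (40.4% of all were), and the median log2 difference was 0.79. The 4 were Acta2, Tagln, Sparc and Pdgfrb, whose values are given above, and of which all but Sparc reached 5 FPKM with the knockdown only. The counts and the median include these knockdown-only genes, so they are a description. With the block 5 of the 13 were higher at an adjusted p under 0.05, beside 0.55% of all genes tested. Acta2, Tagln and Pdgfrb are among the 5, and their p lends no support. Fn1, Cdh2 and Vim were not called. Fn1 (fibronectin) was at 659 FPKM in siNC cells and at 1718 (pair 1) and 1026 FPKM (pair 2), above siNC by less than 2-fold with pair 2, and the Cuffdiff intervals of Fn1 were as wide as 0 to 11181 FPKM. Cdh2 (N-cadherin) was at 33.6, 50.5 and 29.2 FPKM, above siNC with pair 1 and below it with pair 2. Vim (vimentin) was at 465, 481 and 696 FPKM. The matrix proteins tenascin C (Tnc, 255, 428 and 281 FPKM) and osteopontin (Spp1, 346, 246 and 373 FPKM) were not called, and Spp1 lay below siNC with pair 1 and above it with pair 2. Of 10 tested EMT transcription factor genes, 0 were called in either direction, which at 2.49% lower and 1.33% higher among all genes tested is near the background, and Snai1 was at 39.4, 47.9 and 83.0 FPKM. Snai2 and Zeb1 stayed below the minimum, with Snai2 at 1.15, 3.40 and 1.38 FPKM and Zeb1 at 1.78, 3.66 and 2.84 FPKM.

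Of 39 genes of epithelial identity, 29 were below siNC with both pairs and 4 above, with a median log2 difference of -0.52, beside 35% of all genes tested below and 40.4% above. The only one called (2.56%, beside 2.49% of all genes) was Ppl, the desmosome-associated periplakin (9.38, 2.52 and 1.42 FPKM). Cdh1 (E-cadherin) was at 68.3 FPKM with siNC and at 53.4 and 39.5 FPKM with the pairs (log2 difference -0.56, SE 0.30, adjusted p = 0.496), and the splicing regulator gene Esrp2 at 15.6, 10.7 and 8.46 FPKM. Without TGF-β the median of the list was -0.16.

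The list with the largest share of called genes among those with at least 10 tested members was that of cholesterol synthesis and uptake. All 23 tested genes were above siNC with both pairs, 14 of them (60.9%) by at least 2-fold, and 0 were lower, beside 40.4% above and 1.33% higher among all genes tested. Of the 14, Idi1 alone reached 5 FPKM with the knockdown only. The list had been written with an earlier result for the same genes known, so the count is not independent evidence of their direction. Its median log2 difference was 1.23, and the differences of single genes ranged from 0.08 to 1.92 with pair 1 and from 0.36 to 1.89 with pair 2. Sc4mol (Msmo1), the sterol C4-methyl oxidase, was at 28.6 FPKM with siNC and at 110.6 and 106 FPKM with the pairs (log2 difference 1.89, SE 0.21, adjusted p = 0.147, with the block 0.0374). Insig1, which holds the sterol sensor in the endoplasmic reticulum, was at 12.9, 41.4 and 50.4 FPKM. Mvd, the mevalonate diphosphate decarboxylase, was at 26.0, 79.1 and 85.4 FPKM, and Cyp51, the lanosterol demethylase, at 17.2, 53.02 and 54.5 FPKM. With the block 8 of the 23 genes were higher past the threshold, beside 0.55% of all genes tested. The pairs lay close to each other in these 4 genes, unlike in the contractile genes. Without TGF-β, 8 of the 23 genes were at least 2-fold higher with both pairs, beside 1.54% of all genes tested. The list's median was then 0.98, against 0.009 over all genes tested, and Sc4mol was at 55.7, 69.6 and 82.4 FPKM.

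**Figure D4:**
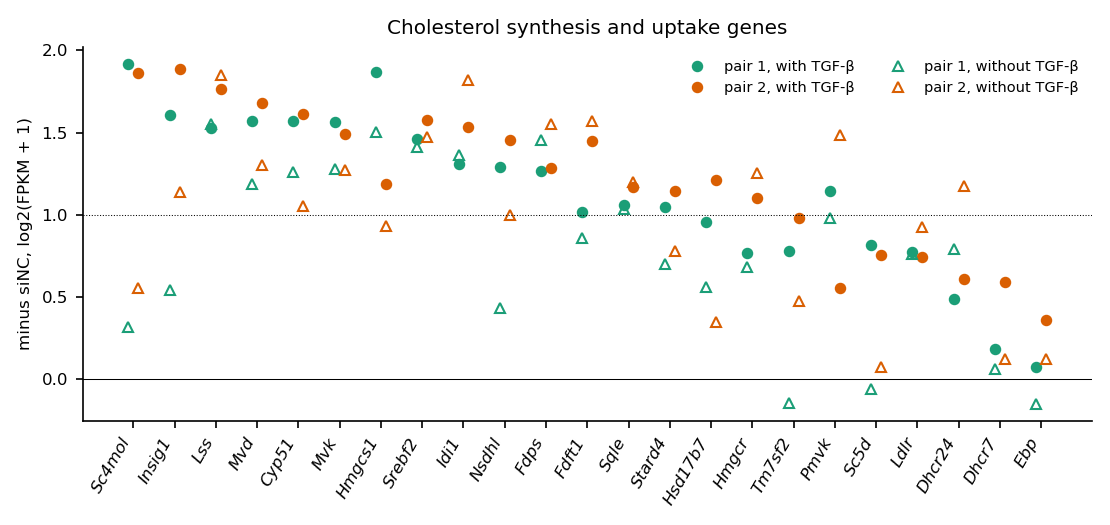
Difference from siNC on the log2(FPKM + 1) scale of the 23 cholesterol synthesis and uptake genes with siRNA pair 1 and pair 2, circles with and triangles without TGF-β, ordered by the mean difference with TGF-β. All circles lie above 0, with 14 genes at or above the dotted line of 2-fold for both pairs, while 3 triangles lie below 0.

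In the integrated stress response, 3 of 25 genes were higher (12%, beside 1.33% of all genes tested) and 2 lower (8%, beside 2.49%). The transcription factor gene Atf5 (28.3, 80.1 and 113.2 FPKM), the seryl-tRNA synthetase gene Sars (37.5, 89.1 and 84.1 FPKM) and the folate enzyme gene Mthfd2 (30.3, 74.1 and 66.0 FPKM) were higher. Sesn2, given among the p53 targets, and Nupr1, a stress-induced chromatin protein, were lower, Nupr1 with 243 FPKM with siNC and 74.5 and 93.6 FPKM with the pairs. Of 41 genes of DNA replication and mitosis, 28 were above siNC with both pairs, where 40.4% of all genes tested were, and the survivin gene Birc5 (65.1, 161 and 156 FPKM) was the only one called (2.44%, beside 1.33% of all). Among genes of TGF-β signalling, Bmp4 was lower (3.06, 0.708 and 0.85 FPKM) and Id3, a target of BMP and TGF-β signals, higher (32.3, 68.4 and 72.3 FPKM). The cytokine list (19 tested genes) held 1 higher gene, Wnt5a, a ligand of non-canonical Wnt signalling (1.77, 5.03 and 8.70 FPKM), and the chemokine list (7 genes) held 1, Ccl9 (0.138, 12.7 and 1.71 FPKM), which is 5.26% and 14.3% beside 1.33% of all genes tested. Krt17, a keratin of basal cells, was lower (11.5, 4.17 and 2.74 FPKM), as was Pfkfb3, an activator of glycolysis (6.31, 0.717 and 1.67 FPKM). Wnt5a and Ccl9 reached 5 FPKM with the knockdown only, and Krt17 and Pfkfb3 with siNC only. The feedback genes Smad7 (28.4, 19.7 and 17.6 FPKM), Skil (17.4, 23.1 and 17.6 FPKM) and Pmepa1 (167, 128 and 288 FPKM) were not called.

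Genes that respond to TGF-β were found among the called genes in both directions. They were taken from the untransfected EpRas libraries (limma adjusted p under 0.05 and at least 2-fold, 127 of 9100 genes raised, 1.40%, and 126 lowered, 1.38%), which come from a separately normalised table and share no library with the knockdown comparison. Of 122 tested genes that TGF-β raised, 14 were lower (11.5%) and 12 higher (9.84%) with both pairs, beside 2.49% and 1.33% of all genes tested. The lower ones included Mmp13, Mmp10, Rgs16, Lama3, Itga2, Lce1f and Fos, and the higher ones Acta1, Col5a3, Adamts4, Mcam, Ret, Glipr2 and Klhl30. Of 119 genes that TGF-β lowered, 25 were lower (21%) and 3 higher (2.52%), and the lower ones included Blnk, Slpi, Sord, Xdh, Nptx1, Ppl, Gsta4 and Bmp4.

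These 25 genes were picked for being lower with the pairs than with siNC under TGF-β, so a smaller fall in siNC cells is largely fixed by that choice, and their response is given as a description. Their median log2 difference between TGF-β and no treatment was -1.62 in untransfected cells, -0.79 with siNC, -1.87 with pair 1 and -1.69 with pair 2. For Slpi, the untransfected libraries had 25.3 and 22.7 FPKM before and 3.53 and 1.89 FPKM after TGF-β. It was at 37.9 FPKM without and 35.4 FPKM with TGF-β in siNC cells. With pair 1 it was at 30.9 and 2.46 FPKM, and with pair 2 at 26.2 and 5.97 FPKM. In untransfected cells with TGF-β, Sord (2.41 and 1.24 FPKM) and Nptx1 (1.21 and 1.26 FPKM) also lay near the pairs. Mmp13 (36.8 and 31.8 FPKM) and Rgs16 (47.0 and 40.7 FPKM), which TGF-β raised, lay above siNC there. The untransfected libraries were normalised separately. The part of the siNC library with TGF-β in the differences of these genes was not tested.

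Most genes called with TGF-β differed from siNC in the same direction without it. Without TGF-β 226 genes (2.49%) were lower and 140 (1.54%) higher with both pairs. The comparisons with and without TGF-β share no library, but they share the siRNAs. Small RNA genes left aside, 93 of the 206 lower genes (45.1%) were also at least 2-fold lower with both pairs without TGF-β, where 199 genes (2.21%) were lower in all, so that the 93 make up 46.7% of those. For the higher genes 30 were shared, 25.4% of the 118 with and 23.8% of the 126 (1.40%) without TGF-β. Without the 2-fold requirement, 185 of the 206 lower genes (89.8%) lay below siNC with both pairs without TGF-β, against 36.8% of all 8998 genes, and 96 of the 118 higher genes (81.4%) lay above, against 39.3%. Over all 8998 genes the differences with and without TGF-β correlated with r = 0.564 and rho = 0.518, which describes genes of the same libraries and not replicates. Clcf1 was then at 168 FPKM with siNC and at 42.9 and 58.9 FPKM with the pairs, Rgs16 at 21.7, 0.882 and 1.74 FPKM and Fetub at 20.2, 1.57 and 0.929 FPKM. Mmp13 was at 4.46 FPKM with siNC and at 0.801 and 0.684 FPKM with the pairs. These 4 genes were thus far below siNC in both treatments. Of the 15 largest decreases 10 were also called without TGF-β, and Pdyn, Fbxo2, Mmp12, Slpi and Nptx1 were not. Mmp12 and Pdyn were at 0.435 and 0 FPKM with siNC without TGF-β. Of the 15 largest increases 4 were called without TGF-β, Ces1g, H2afx, Prss23 and Pdgfrb.

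**Figure D5:**
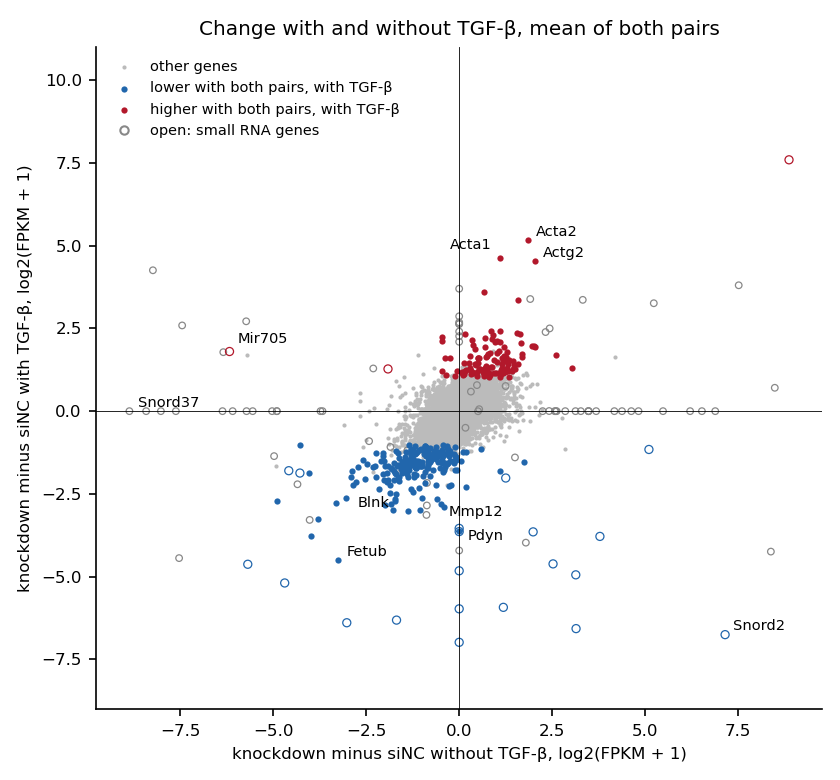
Mean difference of both pairs from siNC without TGF-β (horizontal axis) and with TGF-β (vertical axis) on the log2(FPKM + 1) scale, 1 point for each of the 9094 genes, open circles for small RNA genes. Most blue (lower) and red (higher) points lie on the same side of 0 on both axes, and the points far out on the horizontal axis alone are small RNA genes such as Snord37.

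The difference between the effects with and without TGF-β was tested as an interaction in limma. It passed an adjusted p of 0.05 for 19 genes, with 8 more negative (0.088%) and 11 more positive (0.121%) effects under TGF-β, and 423 genes had an unadjusted p under 0.05. Of the 19 genes 18 are small RNA genes and the remaining one is Pdyn, and without either of the untreated knockdown libraries 0 genes passed. Sprr1a, chosen after its value was seen, had the next smallest adjusted p (0.052). It was at 18.5 FPKM without and 1.05 FPKM with TGF-β in siNC cells and was listed at 0 in all 4 knockdown libraries. That an effect passed 2-fold in only one of the treatments does not show that it differed between them.

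The pairs differed from each other most, among genes of at least 20 FPKM with siNC, for Mir700, Snord96a, Snord33, Snord100, Snord34 and Snord92. These small RNA genes rested on 1 to 7 reads with siNC where read numbers could be recovered (Mir700, Snord96a, Snord33, Snord100 and Snord34). Among other genes, chosen after their values were seen, Ggct, an enzyme of glutathione breakdown, was at 20.5 FPKM in siNC cells, against 5.64 FPKM for pair 1 and 55.9 FPKM for pair 2, and Ank, a pyrophosphate transporter, at 99.2, 30.7 and 159 FPKM. Serpinf1, a secreted inhibitor of angiogenesis, was lower with both pairs but to different levels (25.9, 1.74 and 10.9 FPKM). Counts by a single pair were larger than those by both, with 500 lower (5.5%) and 310 higher genes (3.41%) with pair 1 and 362 lower (3.98%) and 262 higher genes (2.88%) with pair 2.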

How the data were processed

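Total RNA of EpH4 and EpRas cells was enriched for mRNA and read on the Ion Proton in a way that keeps the strand, and siRNA-transfected and untransfected samples were handled independently. Per the labels and the study's methods, the authors aligned reads to mm10 with TopHat2 2.0.11 and Bowtie2 and deposited FPKM values with interval ends from Cuffdiff (Cufflinks 2.2.0), in a separate table for each of these sets. FPKM are not counts, and read numbers were recovered for 663 of the tested genes from the steps between low values, so depth is relative. Results of the authors' own comparisons were not used.

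Of 23284 genes, the 9094 that reached 5 FPKM in at least 1 of the 6 siRNA libraries and had the status OK in all were tested (2 genes lacked that status). Differences were taken on the log2(FPKM + 1) scale, which understates changes of low genes. A gene was called where both pairs differed from siNC by at least 2-fold in 1 direction. limma 3.58.1 (R 4.3.3) was fitted to the 6 siRNA libraries as 4 groups, with 2 residual degrees of freedom, the lone siNC libraries assumed to vary like the others, and Benjamini-Hochberg adjustment. Nothing in the labels gives replicate cultures, so p-values of the main fit measure the spread between the pairs. The fit with the siRNA pair as a block takes out that spread where both treatments share it, and leaves 1 residual degree of freedom. Its p-values measure only how far the difference between the pairs changed with TGF-β. Pair numbers mark the same siRNAs with and without TGF-β. The deviations of the pairs correlated across genes with 0.232 (0.516 without small RNA genes). For this reason the fit with the siRNA pair as a block is given beside the main one for some genes. The scripts were tested on simulated data.

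Named genes were a written list of genes known for EMT, ERK or invasion, the 15 largest decreases and 15 largest increases with separate intervals (small RNA genes left out), up to 4 called genes per list, up to 6 genes by the test of the difference of effects and up to 6 by the difference between the pairs. The members and the 31 lists (710 genes, 708 in the table) were chosen with earlier results of these data known. The lists for IGF-binding proteins (2 tested genes), collagen-modifying enzymes (12) and antigen presentation (8) held 0 called genes. At 2.49% lower and 1.33% higher among all genes tested, that is near the background. Some members of the lists are not reported here. Coordinates are from GENCODE M21 and promoters from RefSeq (GRCm38.p6). Alternatives were the pseudocount, the filter, the fold, the intervals, the model, the block and leaving out each library. Those without small RNA genes and at unadjusted p were added after seeing the data.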

Additional observations from a re-analysis of the deposited data

Results flagged for a closer look

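For 7 named genes the knockdown effects with and without TGF-β passed limma's test of their difference (Benjamini-Hochberg adjustment over 9094 genes). For Pdyn the difference of the effects was -3.626 on the log2(FPKM + 1) scale (adjusted p = 0.0353). Pdyn was at 11.3 FPKM in siNC cells with TGF-β and listed at 0 in the other 5 siRNA libraries. The remaining 6 are small RNA genes. Snord2 had a difference of -13.9 (adjusted p = 0.00147), with 0, 137 and 146 FPKM without and 107, 0 and 0 FPKM with TGF-β (siNC, pair 1, pair 2). The differences were 8.87 for Snord37, 8.42 for Snord66, 8.024 for Scarna17 and 7.621 for Mir3064, each with an adjusted p of 0.00382. These 4 genes were at 467, 342, 259 and 196 FPKM in siNC cells without TGF-β and listed at 0 in the other 5 libraries. Mir705 had a difference of 7.979 (adjusted p = 0.00382), with 71.4, 0 and 0 FPKM without and 91.0, 301 and 339 FPKM with TGF-β. Pdyn, Snord37, Snord66, Scarna17 and Mir3064 were above 0 in 1 library each and reached 5 FPKM through that library alone, so a difference was fixed by the filter, and the spread between pairs listed at 0 is 0. Over all genes the number that passed fell from 19 to 0 without either of the untreated knockdown libraries.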

How the results depend on the processing

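The counts moved with the settings, and the causes were not tested. The small RNA genes that differed most between the pairs rested on 1 to 7 reads with siNC, and among other genes Actg2 rested on 1, Ccl9 on 5 and Wisp2 on 6 reads. For the 226 lower genes the count was 115 with a pseudocount of 5 FPKM, 117 with a mean of at least 10 FPKM, 625 at 1.5-fold, 74 at 3-fold, 41 with separate intervals and 362 to 500 without 1 of the pairs. For the 121 higher genes it was 58 with a pseudocount of 5 FPKM, 514 at 1.5-fold, 29 at 3-fold, 22 with separate intervals and 262 to 310 without 1 of the pairs. The 7 genes that fell by limma became 4 with a pseudocount of 5 FPKM, 557 with no filter, 3 with a mean of at least 10 FPKM, 123 in an additive model, 0 with the 3 TGF-β libraries alone, 2 without small RNA genes, 597 at unadjusted p and 0 to 9 without 1 library (0 without either untreated knockdown library). The 0 genes that rose became 48 with no filter, 70 in the additive model, 586 at unadjusted p and 0 to 5 without 1 library (5 without either pair with TGF-β). With the siRNA pair as a block 99 fell and 50 rose. The 19 differences of effects became 748 with no filter, 11 with a mean of at least 10 FPKM and 0 to 30 without 1 library (0 without either untreated knockdown library, 30 without pair 2 with TGF-β). The 33 different genes of the lists that were lower became 17 with a pseudocount of 5 FPKM and 17 with a mean of at least 10 FPKM, and the 25 lower genes that TGF-β lowered became 15 under each. The 3 higher ones became 1 with a pseudocount of 5 FPKM.

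For 103 named genes, 1092 of 1204 alternative values kept their direction and their side of the threshold, 88 newly passed it and 10 no longer did. The remaining 14 changed sign or moved away from a main value of 0. In the additive model Tnc was at -0.2257 (0.4446 otherwise), Cdh2 at -0.1341 (0.1893), Snord2 at 0.2007 (-6.751), Mir705 at -2.188 (1.802) and Mir700 at 2.071 (-4.243). Snord37 was at -4.435, Snord66 at -4.21, Scarna17 at -4.012 and Mir3064 at -3.81 (0 otherwise for each). Without 1 of the pairs with TGF-β, Spp1 ranged from -0.4872 to 0.1097, Cdh2 from -0.1947 to 0.5733, Pmepa1 from -0.3872 to 0.781, Snord33 from -5.814 to 1.476 and Snord34 from -6.904 to 0.3331.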
